A study of Homo sapiens with 4 samples.

Results

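The RUNX family and its core cofactors are described here in HGC27 cells with and without a RUNX3 knock-out. The 7 genes, taken by symbol from the 25559 genes in the count tables, were the RUNX paralogs RUNX1, RUNX2 and RUNX3, their shared binding partner CBFB, and the ETO-type corepressors RUNX1T1, CBFA2T2 and CBFA2T3. HGC27 is an established human gastric cancer line of metastatic origin. Poly(A) RNA was sequenced from 2 libraries of wildtype cells (wt) and 2 libraries of RUNX3 knock-out cells (RUNX3KO). The knock-out had been made with lentiviral Cas9 and a guide to the third exon of RUNX3, followed by puromycin selection and single-cell cloning. The number of clones behind the RUNX3KO libraries and the treatment of the wt cells are not given in the sources used here, so a difference between genotypes and a difference between clones cannot be told apart. The labels also do not say whether replicates were separate cultures, so p-values measure only the spread between these libraries.

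RUNX proteins bind DNA through the Runt domain, and they bind it firmly only as a dimer with CBFβ, the product of CBFB, which does not contact DNA itself. RUNX1 is needed for the emergence of blood stem cells, RUNX2 drives bone formation, and RUNX3 acts in T cells, sensory neurons and the stomach. RUNX genes share a layout with an upstream and a downstream promoter, which give proteins with different first residues. ETO-type proteins do not bind DNA on their own and bring histone deacetylase complexes to transcription factors. RUNX1T1 (ETO) is best known from the RUNX1-RUNX1T1 fusion of acute myeloid leukaemia, and CBFA2T2 (MTGR1) and CBFA2T3 (MTG16) are its paralogs.

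Each library held between 11731401 and 12110876 reads assigned to genes. The chi-square per degree of freedom, which is near 1 where only counting error separates libraries, was 1.22 for the wt pair and 1.18 for the RUNX3KO pair, against 16.9 to 17.4 between genotypes. Blood cell markers, checked because blood cells express RUNX1 and RUNX3 strongly, were at or near 0. All 8 summed to 0.339 to 0.593 CPM (counts scaled to the library's total on genes, after TMM normalization) in wt and 0.499 to 0.763 CPM in RUNX3KO libraries, with CD3D, CD3E, HBB and CD34 at 0 in all 4. The 4 osteoblast markers summed to at most 0.932 CPM in any library. Of 6 gastric lineage markers, CLDN18, TFF1, TFF2, MUC5AC and GKN1 had no count in any library, and GATA6 had 97 and 91 counts in wt and 159 and 198 in RUNX3KO libraries. The 6 epithelial markers summed to 3.98 to 4.57 CPM in wt and 11.8 to 12.3 CPM in RUNX3KO libraries. EPCAM had at most 1 count and KRT19 none, and the 3 that could be tested were all higher in RUNX3KO cells at an adjusted p under 0.05 in edgeR, which 24.5% of all tested genes passed as higher and 24.4% as lower. These were the keratin KRT8, from 19 and 11 to 72 and 81 counts (log2 fold change 2.33, SE 0.251, edgeR adjusted p = 1.90e-13), CDH1 (0.77, adjusted p = 0.0238) and CLDN7 (0.75, adjusted p = 0.0406). Of 4 mesenchymal markers, the 3 tested were all lower, VIM from 4890 to 2900 CPM, ZEB1 by 0.26 on the log2 scale, and FN1, which encodes fibronectin, from 115 and 95 to 15 and 11 counts (-3.01, SE 0.240). The part of these marker changes in the values of the 7 genes was not tested.

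All 7 genes had enough counts to be tested. In RUNX3KO cells 5 of them were lower (RUNX1, RUNX2, RUNX3, RUNX1T1 and CBFA2T2), 1 was higher (CBFA2T3), and CBFB did not pass an adjusted p of 0.05 in the quasi-likelihood test of edgeR, with Benjamini-Hochberg adjustment over 12967 genes. Of all genes tested, 24.4% were lower and 24.5% higher by this criterion. RUNX2 also fell and CBFA2T3 also rose by at least 2-fold with an unadjusted edgeR p of at most 0.05. These are the study's own cut-offs, which 4.01% of all genes passed here as lower and 2.11% as higher. The paper used another normalization and reports more genes under these cut-offs, in both directions. In these bulk libraries, fewer cells that express a gene and less RNA per cell cannot be told apart.

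**Figure D1:**
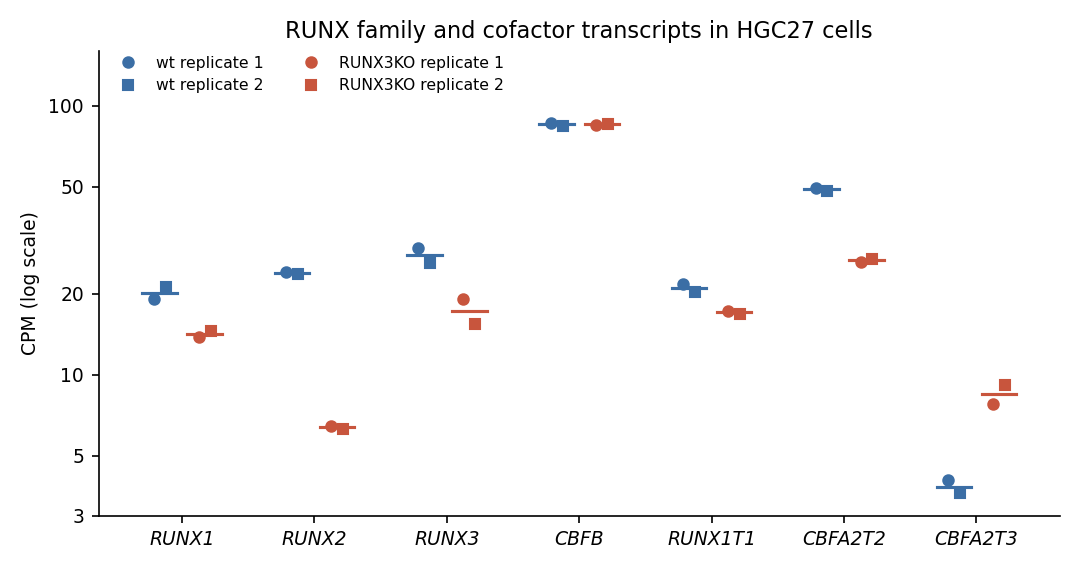
Level of each of the 7 transcripts in CPM (log axis) in every library. Circles and squares are replicates 1 and 2 of wt (blue) and RUNX3KO (red), and bars are group means. Among the 7, the groups overlap only for CBFB, and the share of all tested genes without overlap was not counted. RUNX2 shows the widest gap downward (23.9 against 6.38 CPM). CBFA2T3 is the only transcript with both RUNX3KO values above both wt values (means 8.47 against 3.85 CPM).

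RUNX3 itself, the targeted gene, lies on chromosome 1 from 25226002 to 25291612 (hg19/GRCh37, minus strand). It had 351 and 308 counts in the wt libraries and 225 and 185 in the RUNX3KO libraries, or 29.7 and 26.1 against 19.1 and 15.4 CPM. Both RUNX3KO libraries thus lay below both wt libraries, but the transcript remained at 61.7% of the wt level (95% interval 54.0% to 70.4%). On the log2 scale the change was -0.70 with an SE of 0.0961 (edgeR adjusted p = 1.43e-09). Reads were counted over the whole gene, so these values do not show whether the remaining transcript carries the edit, and protein was not measured in these files. The study reports that RUNX3 deletion was verified on RNA and protein after cloning, and its immunoblot showed no RUNX3 protein in the knock-out cells. RUNX3 was also the gene of the 7 with the widest spread between its RUNX3KO replicates relative to its level (SD 2.60 CPM at a mean of 17.2). Without RUNX3KO replicate 2 the log2 fold change was -0.55 and the call was lost (adjusted p = 0.0649, over a range of 1.54e-11 to 0.0649 with each library left out in turn).

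RUNX2, the regulator of osteoblast differentiation, is encoded on the plus strand of chromosome 6 (45295894 to 45632086). Its counts were 285 and 280 in wt and 76 and 76 in RUNX3KO libraries, or 24.1 and 23.7 against 6.44 and 6.32 CPM. The replicates were nearly level within each genotype and the gap between genotypes was wide. RUNX2 kept 26.7% of its wt level (95% interval 22.6% to 31.5%), a change of -1.91 on the log2 scale (SE 0.121, edgeR adjusted p = 2.43e-25). Among the 6529 genes with a lower estimate in RUNX3KO cells it ranked 192 by fold change and 122 by p. With each library left out it stayed between -1.92 and -1.89, and every one of these fits and of the 10 other alternatives called it.

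RUNX1, the haematopoietic paralog, is encoded on the minus strand of chromosome 21 (36160098 to 37376965). It had 225 and 250 counts in wt and 163 and 176 in RUNX3KO libraries, or 19.1 and 21.2 against 13.8 and 14.6 CPM. Its groups did not overlap either, and the fall was smaller, to 70.7% of wt (95% interval 61.2% to 81.8%; log2 fold change -0.50, SE 0.105, edgeR adjusted p = 3.59e-05). The call was lost without RUNX3KO replicate 1 (log2 fold change -0.46) and without RUNX3KO replicate 2 (-0.54), with adjusted p-values of 0.0700 and 0.0599 in a range of 2.96e-05 to 0.0700 over the libraries left out. No paralog was higher in RUNX3KO cells.

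**Figure D2:**
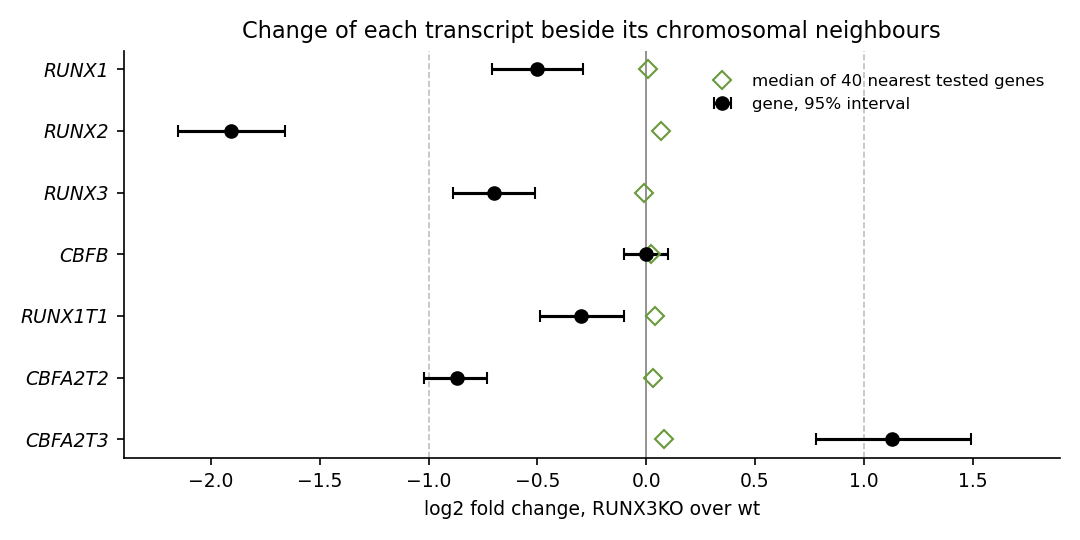
Log2 fold change of each gene in RUNX3KO over wt cells (black points, bars are 95% intervals from edgeR's quasi-likelihood fit) beside the median of the 40 nearest tested genes on its chromosome (green diamonds). Dashed lines mark a 2-fold change. The neighbours' medians lie between -0.01 and 0.08, away from the intervals of all genes but CBFB.

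The promoters of 5 of the 7 genes were searched for the RUNX consensus, since all paralogs were lower in RUNX3KO cells. CBFB and RUNX1T1 were not searched. The letters searched were TGTGGT and TGCGGT on both strands, in the 250 bases before each RefSeq start site that had a window (GRCh38.p14). The pair differ in 1 letter, can share end bases, and did not overlap in the windows described here. Windows were available for RUNX1, CBFA2T2 and CBFA2T3, a single one each. RUNX2 and RUNX3 each had an upstream and a downstream window, making 7 windows of 5 genes in all. Any other start of RUNX1, CBFA2T2 and CBFA2T3 was not searched, so RUNX1 was not covered at both an upstream and a downstream start. Only the upstream windows of RUNX2 and RUNX3 held a match, and each held TGTGGT 2 times, read on the opposite strand. Of 35114 promoter windows of this length, 11.0% held TGTGGT, 5.84% held TGCGGT, 16.3% held either, and 0.971% held TGTGGT 2 or more times. In the RUNX2 window (chr6:45328080-45328329, plus strand) the matches are at -191 and -87, counted in bases from the start site. In the RUNX3 window (chr1:24965011-24965260, minus strand) they are at -131 and -123, separated by 2 bases. Both windows are given 5′ to 3′ on the strand of the gene, with the matches in capitals, because they belong to the most strongly lowered gene of the 7 and to the targeted gene.
RUNX2 upstream promoter: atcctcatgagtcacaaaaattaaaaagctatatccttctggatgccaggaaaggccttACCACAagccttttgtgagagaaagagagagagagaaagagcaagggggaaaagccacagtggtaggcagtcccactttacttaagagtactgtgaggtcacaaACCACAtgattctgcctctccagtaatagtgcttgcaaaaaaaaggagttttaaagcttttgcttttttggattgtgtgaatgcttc
RUNX3 upstream promoter: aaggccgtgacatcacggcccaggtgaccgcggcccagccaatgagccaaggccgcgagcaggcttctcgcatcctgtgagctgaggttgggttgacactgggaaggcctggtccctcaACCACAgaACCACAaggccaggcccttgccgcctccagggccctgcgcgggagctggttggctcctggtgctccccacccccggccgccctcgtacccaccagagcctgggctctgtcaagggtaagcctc

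A match is a description of these letters only. RNA counted over a whole gene does not separate transcripts of the upstream start from those of the downstream start, so the change of RUNX2 and RUNX3 could not be assigned to either promoter.

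**Figure D3:**
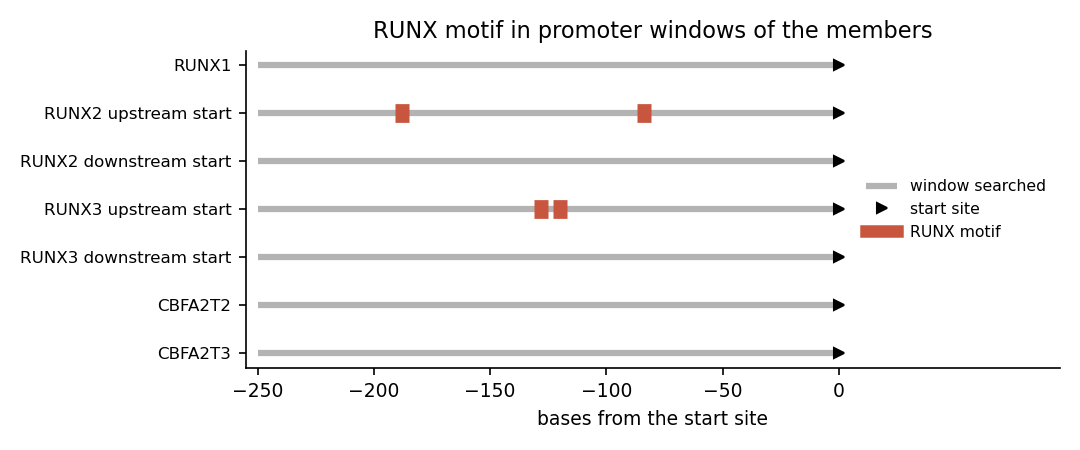
Position of the RUNX motif (red) in the 250 bases before each start site searched (grey line, arrowhead at the start site), in bases from the start. The matches are the 2 in the upstream RUNX2 window, at -191 and -87, and the 2 in the upstream RUNX3 window, at -131 and -123, and the other 5 windows hold none.

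To compare genes with each other, CPM was divided by the length of all exons of a gene in kilobases (RPKM). In wt cells RUNX3 was the most abundant paralog at 5.67 ± 0.522 RPKM (SD, n = 2), followed by RUNX2 at 2.92 ± 0.0357 and RUNX1 at 1.29 ± 0.0965 RPKM. In RUNX3KO cells RUNX3 remained first at 3.50 ± 0.528 RPKM (SD, n = 2), and RUNX1 at 0.913 ± 0.0377 RPKM now lay above RUNX2 at 0.779 ± 0.0101. Neighbours in each order were separated by more than their SD. The order of RUNX1 and RUNX2 in wt cells depended on the length used, however, and the exons of all annotated RUNX1 transcripts add up to 15574 bases, of which 1543 are coding. Values per coding length divide the same CPM by coding bases, although the reads were not limited to coding sequence. By that measure RUNX1 (12.4 and 13.7 RPKM) was above RUNX2 (10.9 and 10.8 RPKM) in the wt libraries as well. With the longest transcript, RUNX1 (2.62 and 2.91 RPKM) stayed below RUNX2 (4.11 and 4.04 RPKM) in wt. The ratio of RUNX1 to RUNX2 rests on the same change whatever the length, and RUNX3KO cells had 2.65 times the wt ratio.

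Summed over the paralogs, the RUNX level was 10.2 and 9.56 RPKM in wt and 5.55 and 4.84 RPKM in RUNX3KO libraries, so RUNX3KO cells had 52.5% of the wt sum. RUNX2 made up 28.9% and 30.3% of this sum in the wt libraries and 14.2% and 16.0% in the RUNX3KO libraries. RUNX3 made up 59.2% and 55.5% in wt and 69.8% and 64.6% in RUNX3KO libraries, so RNA of the targeted gene was a larger part of the smaller sum. These values are RNA over the whole gene and do not show whether the remaining RUNX3 transcript carries the edit. The same limit holds for the ratios to this sum below. RUNX1 went from 12.0% and 14.2% to 16.0% and 19.4%. The groups did not overlap for any of these shares, but 2 libraries against 2 cannot reach 0.05 in an exact two-sided permutation test, and all of them gave the smallest p it allows, 0.333. Per coding length the shares of RUNX3 overlapped between the genotypes (49.5% and 45.0% against 55.2% and 48.9%, exact permutation p = 0.667).

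**Figure D4:**
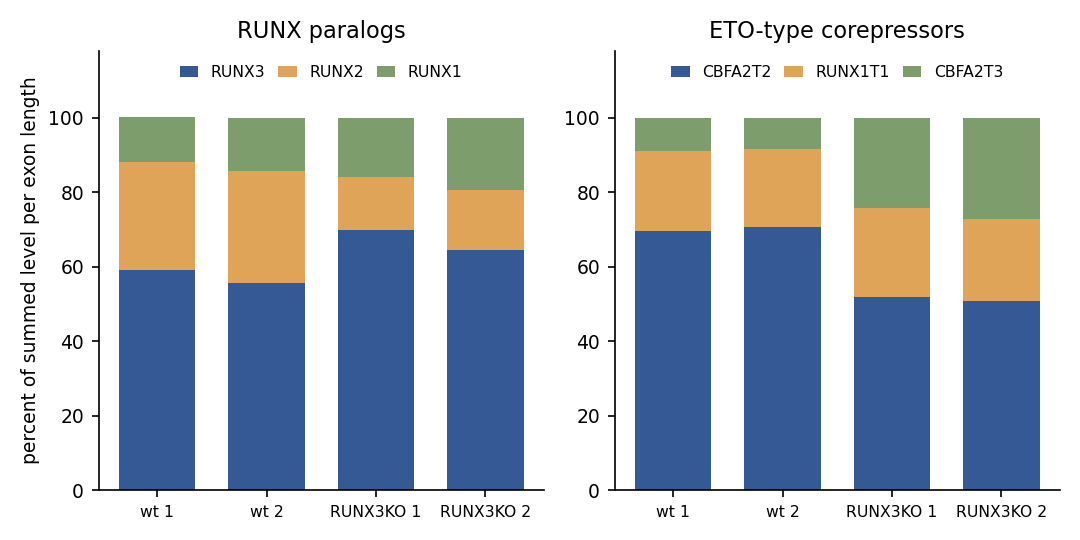
Share of each gene in the summed level per exon length (percent) of the RUNX paralogs (left) and of the ETO-type corepressors (right), 1 bar per library. The RUNX2 share falls from 28.9% and 30.3% in wt to 14.2% and 16.0% in RUNX3KO, and the CBFA2T3 share rises from 9.05% and 8.45% to 24.3% and 27.2%.

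CBFB, which encodes the common partner of the RUNX proteins, is encoded on the plus strand of chromosome 16 (67062887 to 67134961). It had 1019 and 993 counts in wt and 1001 and 1031 in RUNX3KO libraries, and its 86.3, 84.1, 84.8 and 85.8 CPM overlapped between genotypes. The log2 fold change was 0.00 (SE 0.0487, edgeR adjusted p = 0.988), and the 95% interval ran from 93.6% to 107% of the wt level. At 18.3 RPKM in both genotypes, CBFB exceeded the RUNX sum in every library. The ratio of CBFB to the RUNX sum was 1.82 and 1.89 in wt and 3.29 and 3.81 in RUNX3KO libraries, groups that did not overlap (exact permutation p = 0.333, the smallest possible).

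Among the ETO-type corepressors, CBFA2T2 was the most abundant in both genotypes. It is encoded on the plus strand of chromosome 20 (32077881 to 32237842). Its counts were 585 and 570 in wt and 311 and 325 in RUNX3KO libraries, or 49.6 and 48.3 against 26.3 and 27.0 CPM. The groups were far apart relative to the replicates. CBFA2T2 kept 54.6% of its wt level (95% interval 49.3% to 60.4%), a change of -0.87 on the log2 scale (SE 0.0734, edgeR adjusted p = 1.64e-18). It ranked 286 by p among the lower genes, next after RUNX2 among the 7, and all alternatives and all fits without a library called it.

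CBFA2T3, a corepressor known mainly from blood cells, is encoded on the minus strand of chromosome 16 (88941266 to 89043615). It was the rarest of the 7 in wt cells, with 48 and 43 counts in wt and 92 and 110 in RUNX3KO libraries, or 4.07 and 3.64 against 7.79 and 9.15 CPM. Both RUNX3KO values were higher than both wt values. The rise to 220% of wt (95% interval 172% to 281%; log2 fold change 1.13, SE 0.179, edgeR adjusted p = 6.93e-08) ranked 221 by fold change and 839 by p among 6438 genes with a higher estimate. With a library left out it ranged from 1.01 to 1.25 and was called each time. A lncRNA on the opposite strand that has no row in the tables shares 501 exonic bases with CBFA2T3, and no source used here says whether counting was stranded, so reads of that transcript may be among its counts.

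RUNX1T1 is encoded on the minus strand of chromosome 8 (92967200 to 93115514). Its counts were 256 and 239 in wt and 204 and 203 in RUNX3KO libraries, or 21.7 and 20.3 against 17.3 and 16.9 CPM. The groups did not overlap, but the change was the smallest of the 6 genes called. RUNX1T1 shares 66 exonic bases with another opposite-strand lncRNA without a row in the tables, so the same limit holds for its counts. It kept 81.5% of the wt level (95% interval 71.1% to 93.4%; log2 fold change -0.30, SE 0.0994, edgeR adjusted p = 0.00978). DESeq2 did not call it (adjusted p = 0.181, in a range of 0.00587 to 0.181 over the 10 other settings), and it was lost without wt replicate 1, RUNX3KO replicate 1 or RUNX3KO replicate 2, with log2 fold changes of -0.25, -0.31 and -0.28.

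The ETO-type sum was 7.52 and 7.21 RPKM in wt and 5.37 and 5.64 RPKM in RUNX3KO libraries, 74.7% of wt. CBFA2T2 supplied 69.7% and 70.8% of it in wt and 51.9% and 50.7% in RUNX3KO libraries, while CBFA2T3 went from 9.05% and 8.45% to 24.3% and 27.2%. RUNX1T1 supplied 21.3% and 20.7% in wt and 23.8% and 22.1% in RUNX3KO libraries. The order by RPKM was CBFA2T2, RUNX1T1 and CBFA2T3 in wt (5.17, 1.55 and 0.645). In RUNX3KO cells CBFA2T3 (1.42 ± 0.160) and RUNX1T1 (1.26 ± 0.0208) differed by no more than the SD of CBFA2T3, and CBFA2T2 remained first at 2.82 ± 0.0511 RPKM. This near tie depended on the length used, since RUNX1T1 was above CBFA2T3 in RUNX3KO cells with the longest transcript (2.27 ± 0.0374 against 1.89 ± 0.214 RPKM) and per coding length (7.34 ± 0.121 against 4.16 ± 0.471 RPKM). Relative to the RUNX sum, the ETO-type sum was 0.737 and 0.755 in wt and 0.968 and 1.17 in RUNX3KO libraries, since it fell by less.

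The genes around each locus had medians near 0. Over the 20 nearest tested genes on each side, the median log2 fold change was 0.07 at RUNX2, -0.01 at RUNX3, 0.01 at RUNX1, 0.02 at CBFB, 0.04 at RUNX1T1, 0.03 at CBFA2T2 and 0.08 at CBFA2T3. Of the 40 genes at each locus, 1 fell at least as far as RUNX2, 1 as far as CBFA2T2, 2 as far as RUNX3, 2 as far as RUNX1 and 7 as far as RUNX1T1, and none rose as far as CBFA2T3. The genes next to RUNX2 were SUPT3H (285 and 237 counts in wt, 240 and 245 in RUNX3KO) and ENPP4, with edgeR adjusted p-values of 0.316 and 0.132. Beside RUNX3, CLIC4, which encodes an intracellular chloride channel protein, fell from 3060 and 2957 to 2212 and 2243 counts (log2 fold change -0.45, SE 0.0335), whereas SYF2 on the other side was at -0.10 (adjusted p = 0.229). SLC26A7, next to RUNX1T1, fell from 38 and 29 to 15 and 16 counts (log2 fold change -1.12, SE 0.299). Of the other nearest genes, SETD4 beside RUNX1 and NECAB3 beside CBFA2T2 rose by 0.21 and 0.22 on the log2 scale, and the remaining 7 had adjusted p-values of 0.172 to 0.905. C8orf83 had the highest of these.

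RUNX proteins act with many partners, and these were examined in lists by role. Of 95 tested genes in the lists of partners, modifying enzymes and classical targets, 32 were lower (33.7%) and 24 higher (25.3%) by adjusted p, against 24.4% and 24.5% of all genes tested. Of these only LMO2 and COL1A2 also passed 2-fold, both lower, and the further genes named below were picked after their values were seen. DESeq2 called 20 of the listed genes lower (21.1%) and 16 higher (16.8%), against 14.4% and 14.1% of all genes.

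The corepressors that RUNX proteins recruit, among them Groucho/TLE proteins, SIN3 and class I and II histone deacetylases, had 18 tested genes, of which 5 were lower, 6 higher and 7 not called (median log2 fold change -0.03). TLE2 fell by 0.65 (371 and 410 counts in wt, 267 and 235 in RUNX3KO) and HDAC4 by 0.52, while AES, the short TLE family member, rose by 0.33. Coactivators had 12 tested genes with 4 lower, 2 higher and 6 not called (median -0.05). EP300, a histone acetyltransferase, fell by 0.57 (2070 and 2114 counts against 1396 and 1450), whereas its paralog CREBBP was at -0.06 with an edgeR adjusted p of 0.180. The difference between these paralogs was not tested.

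Of 29 tested transcription factor partners, 9 were lower, 8 higher and 12 not called (median -0.05). LMO2, an adaptor of haematopoietic factor complexes, fell from 40 and 27 to 17 and 15 counts (log2 fold change -1.07, SE 0.299, edgeR adjusted p = 0.00169). ETS1, which binds DNA together with RUNX proteins, fell by 0.87 from 845 and 797 to 443 and 461 counts, and ETS2 fell by 0.64. TEAD4, a partner of YAP1, rose by 0.74. SPI1 and FLI1 had no count in any library. Enzymes that modify RUNX proteins had 22 tested genes, 6 lower, 8 higher and 8 not called (median 0.09). SKP2, a ubiquitin ligase subunit, rose by 0.48 (1076 and 1094 counts in wt, 1515 and 1531 in RUNX3KO).

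Most classical RUNX targets of other tissues were not expressed. In the blood cell list 11 of 17 genes had at most 3 counts in every library, 8 of them none at all, and the 3 tested genes (ITGAE, ZBTB7B and CEBPA) did not pass the test, with log2 fold changes of -0.04 to 0.17. In the bone and cartilage list 7 of 12 genes had at most 3 counts everywhere, and the 3 tested genes were all lower. COL1A2, a type I collagen chain, went from 1973 and 2030 counts in wt to 1 and 5 in RUNX3KO libraries, COL1A1 from 15098 and 14293 to 8010 and 8263, and VEGFA fell by 0.21. In the epithelial and cancer list 5 of 9 tested genes were lower, none was higher and 4 were not called (median -0.15). IRX3, a homeobox gene, fell by 0.91, the Notch ligand JAG1 by 0.71, and CDKN1A, the p21 cell cycle inhibitor, by 0.61. MYC and CCND1 had log2 fold changes of -0.01 and 0.01, with edgeR adjusted p-values of 0.852 and 0.819. The part of any of these genes in the change of another was not tested.

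**Figure D5:**
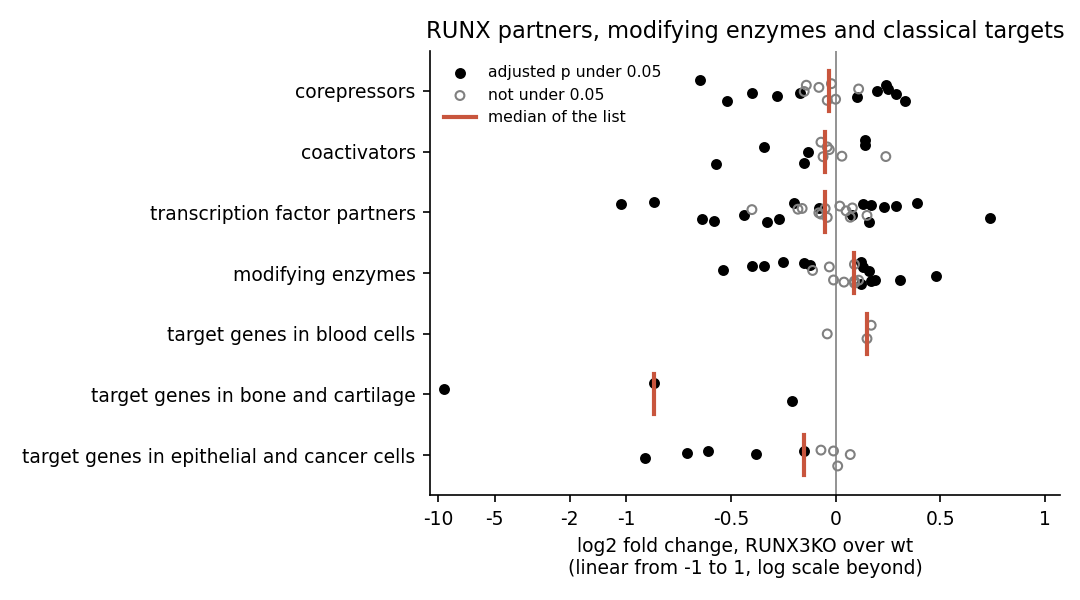
Log2 fold change of each tested gene in the 7 lists (linear from -1 to 1, log scale beyond). Filled points passed an adjusted p of 0.05, open points did not, vertical positions are spread for legibility, and red bars are list medians. Calls lie on both sides of 0 in the 4 lists of partners and enzymes, COL1A2 lies farthest left at -9.34, and no gene of the blood cell targets passed.

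Genes whose pattern over the 4 libraries was most like that of RUNX3, RUNX2 or CBFA2T2 were found by the root mean square difference of log2 CPM after subtraction of each gene's mean, among genes within 2-fold in level. With 4 libraries in 2 genotypes, such a match says little beyond a like fold change and like replicates. For RUNX2 they were PRUNE2 (160 and 160 counts in wt, 38 and 38 in RUNX3KO; difference 0.0513), DNAH10 and SRPX. For RUNX3 they were GORAB (315 and 283 against 208 and 184 counts; 0.0545), CSMD3 and ZNF74. For CBFA2T2 they were ETS1 (0.0167), IFITM2 and FOSL2, which encodes an AP-1 subunit.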

How the data were processed

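The authors deposited raw counts of reads per gene symbol for each library, without normalization. The submitters' processing notes list HISAT2 2.1.0, HTSeq and hg19, whereas the paper's methods name STAR and featureCounts with GENCODE; the tables close with 5 rows for reads without a gene, as htseq-count writes them. These rows held 25.9% to 28.1% of counts and were left out. The strand setting is not given in the sources used here.

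These counts were fitted with edgeR 4.0.16 under R 4.3.3 (filterByExpr, 12967 genes; TMM; glmQLFit and glmQLFTest) with no replicate block. SE was taken as the log2 change over root F, and intervals (95%) use the moderated degrees of freedom. The common dispersion corresponds to a coefficient of variation of 1.45%. Calls required an adjusted p below 0.05 or the study's rule (2-fold, p of at most 0.05). The median log2 fold change was -0.00213. The steps were tested on simulated data. Positions and lengths came from GENCODE on GRCh37 (21719 of 25559 symbols matched) and promoters from RefSeq on GRCh38.p14 (5 of 7 genes matched). The 7 genes and all lists were chosen with earlier results of these data known. All 7 genes were named, with list genes that passed an adjusted p of 0.05 and 2-fold, the nearest tested genes, and the 3 most alike. Alternatives were other scalings, filters and tests (DESeq2 1.42.0, limma 3.58.1 and others), a replicate block, each library left out, and other lengths.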

Additional observations from a re-analysis of the deposited data

How the results depend on the processing

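Of the 7 genes, 5 were lower in RUNX3KO cells with all 4 libraries, and 2 to 5 were with each library left out, which leaves a lone library assumed to vary like the remaining pair. Without RUNX3KO replicate 1 or 2, calls over all genes also fell, to 1531 and 1483 or 1378 and 1285 lower and higher genes, from 3158 and 3183. Over the 4 fits that each lack 1 library, values on the log2 scale ran from -0.57 to -0.42 for RUNX1, -0.86 to -0.55 for RUNX3 and -0.35 to -0.25 for RUNX1T1, and each of these genes lost its call at least once. DESeq2 called 1863 lower and 1829 higher genes, left RUNX1T1 uncalled at -0.30, and counted 20 lower genes in the partner and target lists against 32 by edgeR; the cause was not tested. No direction of the 6 called genes reversed under any alternative. RUNX3 and RUNX2 kept their calls in every scaling, filter and test. With a replicate block RUNX3 was at -0.70 and no call among the 7 changed; same-numbered libraries did not deviate together (correlation -0.00366 over 10869 genes).

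Shares depend on gene length. With the longest transcript or the coding length, RUNX1 made up 20.9% or 28.8% of the RUNX sum in wt and 28.0% or 36.5% in RUNX3KO, RUNX2 30.7% or 23.9% in wt and, per coding length, 11.4% in RUNX3KO, and RUNX3 48.4% or 47.2% in wt and 56.5% or 52.0% in RUNX3KO. RUNX1T1 made up 28.1% or 26.3% of the ETO-type sum in wt and 29.9% or 30.3% in RUNX3KO, CBFA2T2 63.3% or 68.2% and 45.2% or 52.6%, and CBFA2T3, per coding length, 5.52% and 17.1%. CBFB over the RUNX sum was 2.05 or 1.71 in wt and, per coding length, 3.07 in RUNX3KO. RUNX3 minus the median of its neighbours was -0.69, and -0.58 or -0.56 with 10 or 5 genes on each side.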
